A study of Mus musculus and Homo sapiens with 15 samples.

Results

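C-to-U editing by an untargeted deaminase was examined in the transcripts of the nuclear oxidative phosphorylation genes of HEK293XT cells, a human embryonic kidney line. The members were all genes whose symbol begins with NDUF, SDH, UQCR, COX and a digit, or ATP5 in the label of an edit cluster, a stretch of transcript in which C-to-U edits were called as enriched. The rule gave 131 of 18756 symbols, and the edits themselves played no part in it beyond the need for a labelled cluster. Of the 131, 99 were subunits or assembly factors and 32 were other loci: 25 pseudogenes, 3 non-coding RNAs, 3 read-through or antisense loci and UQCRHL. The libraries were made by the enzyme-only arm of INSCRIBE, in which fixed cells received the APOBEC1-nanobody fusion without a primary antibody. RNA was then sequenced from 1 ng (3 libraries) or 100 pg (3 libraries) of input. Thus all 6 libraries carried the enzyme and none an antibody, and they differed in the labels only by the RNA input. HEK293XT libraries without the enzyme were not analysed here, so that the values include whatever background arises without deamination. The labels do not say whether the replicates came from separate cultures. In the study's account, replicates were run on separate slides by its methods and were wells on slides by its reporting summary. They are called technical in its figure legends. The p-values below therefore measure only the spread between these libraries, which may be technical.

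Oxidative phosphorylation is carried out by 5 complexes of the inner mitochondrial membrane. Complex I (NDUF genes) oxidises NADH and complex II (SDH genes) oxidises succinate, and both pass electrons to ubiquinone. Complex III (UQCR genes) hands them to cytochrome c, complex IV (COX genes) reduces oxygen, and complex V (ATP5 genes) makes ATP from the proton gradient. Most subunits are encoded in the nucleus, translated in the cytosol and imported, and a few core subunits are encoded in mitochondrial DNA. Assembly factors help to build a complex without remaining in it. Many of the nuclear mRNAs are short, and many are abundant in growing cells.

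Of the 7 markers of HEK293 cells listed for this check, 5 or 6 had an edit cluster in each 1 ng library and 3 to 5 in each 100 pg library. Of 15 markers of other cell types, HBA2 in 1 ng replicate 2 and MBP in 100 pg replicate 3 had clusters, with 2 and 1 edited bases, and the other 13 had none in any library.

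The positions edited in several libraries are shown before the totals. Of the 1329 member positions with an edit, 1282 (96.5%) were listed in 1 library alone, and over all clusters the share was 96.9% of 147812 positions. In clusters labelled with subunits or assembly factors, 9 positions were listed in 3 or more libraries. Those 9 are printed here, as the positions the report returns to, with 10 bases on each side and the edited C in capitals. They run 5′ to 3′ on the hg38 strand with the sequence of the RNA. The strand is that of the deposited site, and the low-input kit keeps no strand.
NDUFV1, chr11:67609463-67609483, + strand, coding: tggtggtgaaCgcagacgagg
NDUFAF4, chr6:96891105-96891125, - strand, coding: gaaagcaataCgatcaaaatg
NDUFA11, chr19:5894762-5894782, - strand, coding: ggctggagggCtgggaggtgt
ATP5F1C, chr10:7799161-7799181, + strand, coding: gaattggtgaCaaaatcagag
ATP5F1B, chr12:56642690-56642710, - strand, coding: ttgataacatCtttcgcttca
NDUFA5, chr7:123542026-123542046, - strand, 3′ untranslated: ttattactgaCattttgtaat
SDHC, chr1:161362647-161362667, + strand, 3′ untranslated: aaaaactcccCttttttgccc
SDHA label, chr5:293449-293469, + strand, outside the canonical SDHA transcript: caaacgcccgCgatactgtca
ATP5F1C, chr10:7788146-7788166, + strand, outside the canonical transcript: ggagcttcggCgcatgcgcgc

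NDUFV1, the flavoprotein core subunit of complex I that accepts electrons from NADH, held the most heavily edited of these positions. The edit lay in codon 116 and left the amino acid as it was (AAC to AAT, N116N). The edited reads of all covering reads numbered 58 of 88, 77 of 114 and 46 of 91 in the 1 ng libraries. They numbered 86 of 144, 82 of 114 and 81 of 126 in the 100 pg libraries. The fraction was therefore above 50% in every library, from 50.5% (Wilson 95% interval 40.5% to 60.6%) to 71.9% (63.1% to 79.4%), and the inputs overlapped. This position gave 430 of the 471 edited bases counted for NDUFV1. Without it, the gene kept 1, 14 and 3 edited bases at 1 ng and 5, 8 and 10 at 100 pg. Whether the T at this position arose by deamination or was present in the cells was not tested, and known variants had been removed by the authors' site caller. The authors also removed background clusters from their lists of clusters shared by the replicates. By the study's methods these are clusters of controls without antibody or enzyme. The cluster at this position was no longer listed after that step at 100 pg and was kept at 1 ng. The intervals cover counting error only, as reads without molecular identifiers are not independent molecules.

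NDUFAF4, an assembly factor of complex I, held the other position listed in all 6 libraries. The edit turned codon 173 from CGA into the stop codon TGA (R173*), near the end of the reading frame. It was read in 18 of 228, 11 of 307 and 6 of 276 reads at 1 ng. At 100 pg it was read in 6 of 276, 46 of 279 and 11 of 234 reads. Thus 100 pg replicate 2 stood above the rest at 16.5% (12.6% to 21.3%), and the remaining 5 libraries lay between 2.17% and 7.89%. This position carried 98 of the 117 edited reads of NDUFAF4.

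The other recurring coding positions had lower percents than NDUFV1 in every library that listed them. NDUFA11, an accessory subunit of complex I, was edited at codon 132 (G132G) in 11 of 628 and 10 of 822 reads in 1 ng replicates 1 and 3, and in 8 of 723 and 21 of 935 reads in 100 pg replicates 1 and 3. ATP5F1C, the central stalk gamma subunit of complex V, was edited at codon 135 (D135D) in 8 of 425 reads of 1 ng replicate 3 and in 14 of 447 and 10 of 540 reads of 100 pg replicates 1 and 3. ATP5F1B, the catalytic beta subunit, was edited at codon 308 (I308I) in 5 of 448 reads of 1 ng replicate 1 and in 14 of 766 and 10 of 596 reads of 100 pg replicates 1 and 2. All of these coding edits were synonymous and lay between 1.11% and 3.13%. In the 3′ untranslated regions, NDUFA5 was edited in 3 of 131 and 2 of 149 reads of 1 ng replicates 2 and 3 and in 11 of 118 reads of 100 pg replicate 3 (2.29%, 1.34% and 9.32%). SDHC, a membrane anchor of complex II, was edited in 4 of 220 and 4 of 314 reads of 1 ng replicates 1 and 2 and in 5 of 331 reads of 100 pg replicate 2. The pair outside canonical transcripts lay at low cover, with 6 to 46 reads, and reached higher percents. The position labelled SDHA was edited in 1 of 19 and 2 of 24 reads of 1 ng replicates 2 and 3 and in 11 of 46 reads of 100 pg replicate 3 (5.26%, 8.33% and 23.9%). This position lay beyond the annotated end of the SDHA gene (chr5:257082), so that only the cluster label ties it to SDHA. The position labelled ATP5F1C outside its canonical transcript was edited in 2 of 11, 1 of 6 and 5 of 12 reads of the same libraries (18.2%, 16.7% and 41.7%). A library in which such a position was missing has an unknown fraction there, since only positions with a kept edit were listed.

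**Figure D1:**
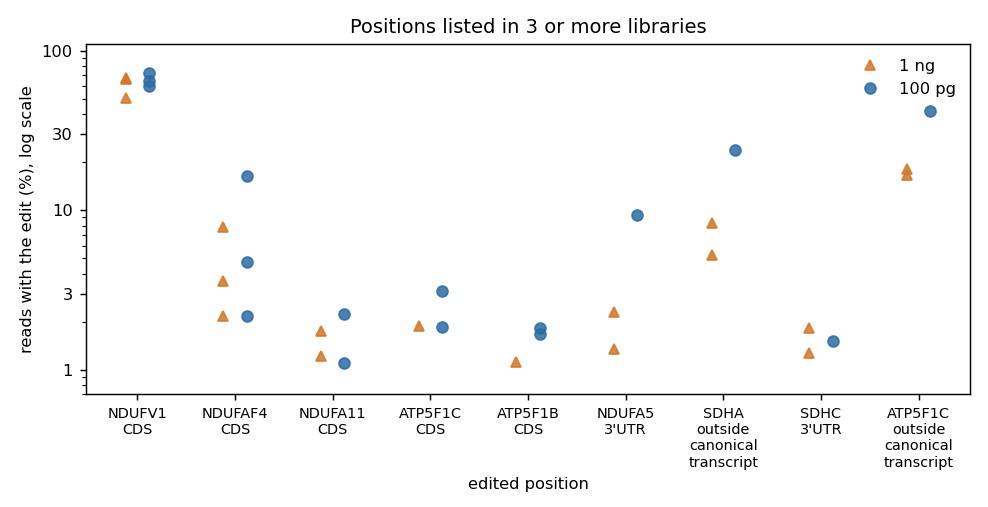
Percent of covering reads with the edit (log axis) at the 9 positions in clusters labelled with subunits or assembly factors that were listed in 3 or more libraries. Each point is a library that listed the position. NDUFV1 lay above 50% in all 6 libraries, and NDUFAF4 between 2.17% and 16.5%.

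The edited base followed an A or a U in 74.4% to 81.5% of member positions at 1 ng and in 66.5% to 71.9% at 100 pg. In the other clusters of the same libraries these shares were 77.0% to 77.9% and 64.6% to 65.9%. APOBEC1 is known to favour a C after A or U. The members thus lay on both sides of the rest at 1 ng and slightly above it at 100 pg.

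In the subunits and assembly factors, 375 distinct edited positions lay in coding sequence of the canonical GENCODE transcript. Of these 180 were missense, 169 synonymous and 26 created a stop codon. All but 1 of the 26 stop positions were listed in a single library, the exception being NDUFAF4. Coding sequence carried 49.1%, 37.8% and 41.0% of the edited reads of these genes at 1 ng and 58.9%, 64.2% and 64.1% at 100 pg. Introns carried 8.87%, 20.3% and 22.7% at 1 ng and 4.43%, 5.49% and 9.19% at 100 pg. The 3′ untranslated regions carried 35.1%, 34.1% and 22.9% against 29.7%, 21.2% and 22.9%. The coding shares did not overlap between the inputs, and the intron share of 1 ng replicate 1 lay within the 100 pg range. By the exon label of the clusters, the edited bases of all 131 members were 78.8%, 71.0% and 60.2% exonic at 1 ng and 90.5%, 87.2% and 85.8% at 100 pg. In all other clusters the exonic share was 76.4%, 73.6% and 75.6% against 82.5%, 81.7% and 81.7%. Thus it was higher at 100 pg without overlap in the rest as well.

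**Figure D2:**
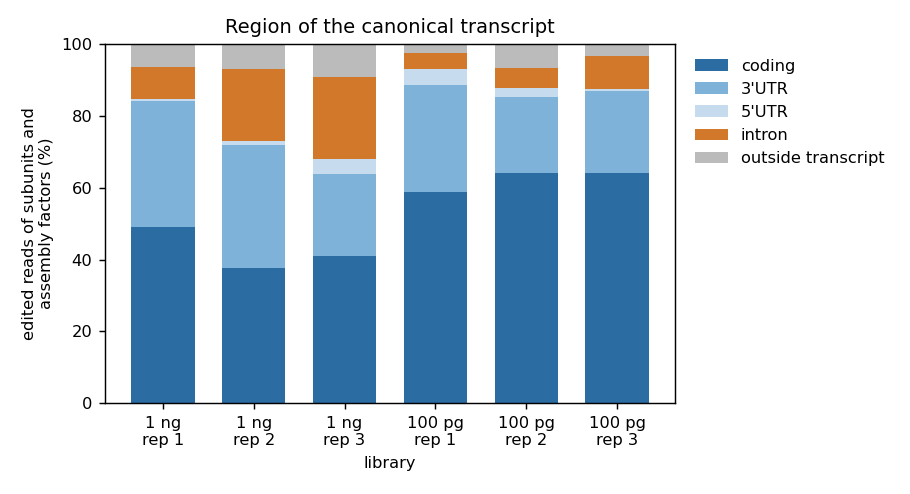
Edited reads of the 99 subunits and assembly factors by region of the canonical transcript, as percent of each library, with 1 bar per library. The coding part made up 37.8% to 49.1% at 1 ng and 58.9% to 64.2% at 100 pg.

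The members took a larger share of the edited bases at 100 pg than at 1 ng. Edited bases are the edited reads summed over the cytidines of a cluster. Member clusters held 547, 604 and 532 edited bases at 1 ng and 1343, 1338 and 1314 at 100 pg. Those were 1.10%, 0.865% and 0.837% of all edited bases at 1 ng and 1.75%, 1.78% and 1.78% at 100 pg, and the inputs did not overlap. The raw number of member clusters overlapped between the inputs, at 176, 243 and 218 at 1 ng and 178, 186 and 175 at 100 pg. As a share of all clusters, the member clusters made up 0.737%, 0.761% and 0.716% at 1 ng. At 100 pg they made up 1.15%, 1.18% and 1.05%, without overlap. Their covered length was 8839, 11611 and 10498 nt at 1 ng and 8272, 8673 and 8340 nt at 100 pg. Across all genes, the 1 ng libraries had 23889 to 31947 clusters with 49903 to 69817 edited bases, and the 100 pg libraries 15474 to 16731 clusters with 73811 to 76683. Read coverage moved with the same contrast. The target bases, which sum the reads over all cytidines of the clusters, numbered 135553, 128335 and 118405 in member clusters at 1 ng and 536362, 492966 and 487024 at 100 pg. The median cover per cytidine of a member cluster was 27.0, 14.7 and 18.8 reads at 1 ng and 127, 106 and 121 reads at 100 pg. In all other clusters it was 17.5 to 18.9 and 24.1 to 24.8 reads. Its part in the higher share of edited bases was not tested.

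Summed over clusters that were called separately in each library, the ratio of edited to target bases of the members was lower at 100 pg than at 1 ng. The percent edited was 0.404%, 0.471% and 0.449% at 1 ng and 0.250%, 0.271% and 0.270% at 100 pg, and the Wilson 95% intervals of the highest library of each input were 0.435% to 0.510% (1 ng) and 0.257% to 0.286% (100 pg). These intervals treat every pooled base as independent. They cover counting error only, not the spread between genes, clusters or libraries. In all other clusters it was 0.618%, 0.598% and 0.591% at 1 ng and 0.672%, 0.662% and 0.645% at 100 pg. In this pooled ratio the members lay below the rest in each of the 6 libraries, and the order of the inputs was opposite in members and rest. Gene by gene the order was not opposite: the edit fraction of the 27 members tested had a median log2 difference (1 ng minus 100 pg) of -0.49, with 17 of the 27 negative, and that of all genes tested was -0.40. The 17 of 27 made up 63.0%, near the 66.8% of all 3622 genes tested that were negative. Without the NDUFV1 position the member values were 0.361%, 0.411% and 0.411% at 1 ng and 0.234%, 0.255% and 0.253% at 100 pg. Among exon clusters with a cover of 100 or more reads per cytidine, the members had 0.217%, 0.285% and 0.175% at 1 ng and 0.212%, 0.221% and 0.216% at 100 pg. The other exon clusters of that range had 0.302%, 0.300% and 0.304% and 0.377%, 0.357% and 0.349%. At that cover the members remained below the rest in every library, and their own inputs overlapped. The median cover within that range was still higher in members, at 317 to 430 against 196 to 201 reads, at 100 pg. At 20 to 100 reads, the members had 0.643%, 0.423% and 0.570% at 1 ng, against 0.479%, 0.485% and 0.479% in the rest. At 100 pg they had 0.806%, 0.894% and 0.860% against 1.16%, 1.08% and 0.969%. In that range the members lay above the rest in 2 of 3 libraries at 1 ng and below it in all 3 at 100 pg, and their own values were higher at 100 pg. The NDUFV1 position was not taken out of these ranges. It was covered by 88 and 91 reads in 1 ng replicates 1 and 3, the libraries in which the members lay above the rest. There it gave 58 and 46 edited bases, beside 163 and 149 in all member clusters of that range. Whether the members lay above the rest without it was not tested. Below 20 reads, the members had 1.33%, 1.56% and 1.47% at 1 ng, against 1.39%, 1.37% and 1.34% in the rest. At 100 pg the values were 0.95%, 1.57% and 1.52% against 1.55%, 1.73% and 1.75%. These member values at 100 pg rest on 12, 10 and 14 clusters with 18, 23 and 33 edited bases. Those at 20 to 100 reads rest on 27, 28 and 22 member clusters at 100 pg. The members thus lay on both sides of the rest at 1 ng and below it at 100 pg.

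**Figure D3:**
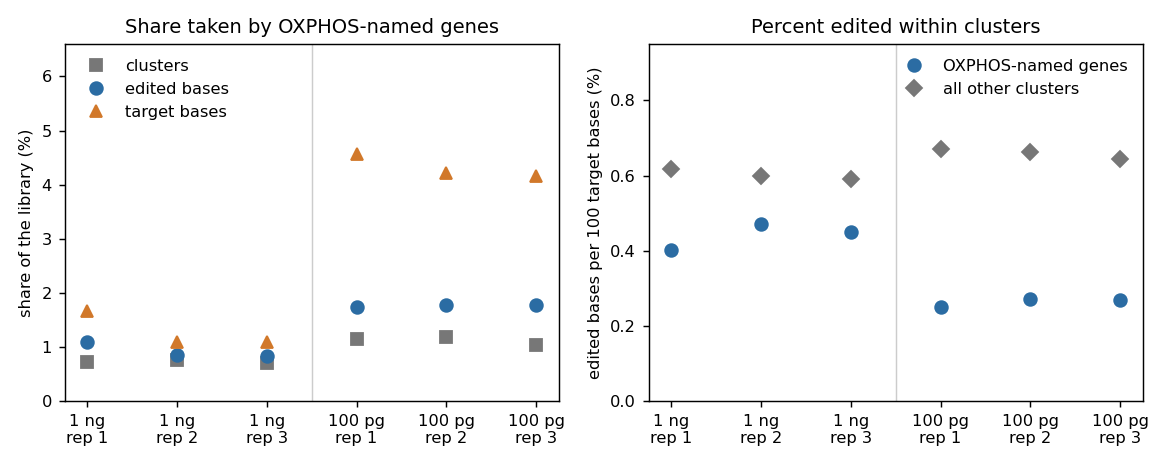
Left, share of each library's clusters, edited bases and target bases taken by the members (%); right, edited bases per 100 target bases in members and in all other clusters. At 100 pg the members took 1.75% to 1.78% of edited bases but 4.15% to 4.56% of target bases.

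Member clusters overlapped a cluster of another library of the same input more often than clusters in general at 100 pg. The overlapping share was 21.3%, 19.9% and 21.7% of member clusters, against 9.76%, 10.2% and 9.74% of all clusters. At 1 ng it was 23.3%, 14.8% and 14.7%, against 19.3%, 15.9% and 16.9%. The higher cover of the members at 100 pg stands beside this, and its part was not tested.

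Of the 131 members, 31 had a cluster in all 6 libraries and 16 in a single library. The members seen in both inputs numbered 99, with 16 seen in 1 ng and 16 in 100 pg libraries alone. Over the 6 libraries, the 99 subunits and assembly factors held between 1 and 471 edited bases (median 34.0), and the 10 highest made up 34.4% of the sum. Where no cluster was called the gene is counted as 0, which is not a measure of absent editing. Edited bases per gene and complex are given below as raw counts. Over all genes their total was higher in every 100 pg library (73811 to 76683) than in every 1 ng library (49903 to 69817). The share of all genes whose inputs do not overlap was not counted, so statements of overlap are descriptions only. In bulk libraries a lower level of a transcript and fewer cells that contain it cannot be told apart.

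Complex I, with 45 members, had more edited bases at 100 pg than at 1 ng, without overlap. The edited bases of the complex summed to 250, 277 and 212 at 1 ng and 531, 586 and 587 at 100 pg, over a covered length of 3235, 4020 and 3283 nt and 2912, 3288 and 3147 nt. The percent edited was 0.418%, 0.558% and 0.595% at 1 ng and 0.245%, 0.337% and 0.270% at 100 pg. The 30 accessory subunits, which surround the catalytic core, held 95, 98 and 85 against 324, 289 and 393 edited bases. The 7 core subunits held 103, 134 and 80 against 155, 195 and 153, of which the NDUFV1 position gave 58, 77 and 46 against 86, 82 and 81.

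NDUFB6, an accessory subunit of the membrane arm, had 0, 0 and 4 edited bases at 1 ng and 26, 32 and 51 at 100 pg. These groups did not overlap, and the log2 difference of 1 ng minus 100 pg was -4.48 ± 1.15 (SE, n = 3 against 3; edgeR quasi-likelihood test, adjusted p = 0.0930). NDUFA5, another accessory subunit, had 12, 15 and 17 edited bases at 1 ng and 0, 51 and 19 at 100 pg, with overlapping groups. Its 22 edited positions lay mostly in the 3′ untranslated region (15 positions). The assembly factor NDUFAF4 had 22, 14 and 13 against 6, 46 and 16. NDUFAF3, which acts early in the assembly of the complex, had 1, 1 and 0 against 12, 17 and 21, without overlap. The cover per cytidine of NDUFAF3 was 7.08 and 23.4 reads in the 1 ng libraries that had a cluster and 380 to 479 reads at 100 pg.

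**Figure D4:**
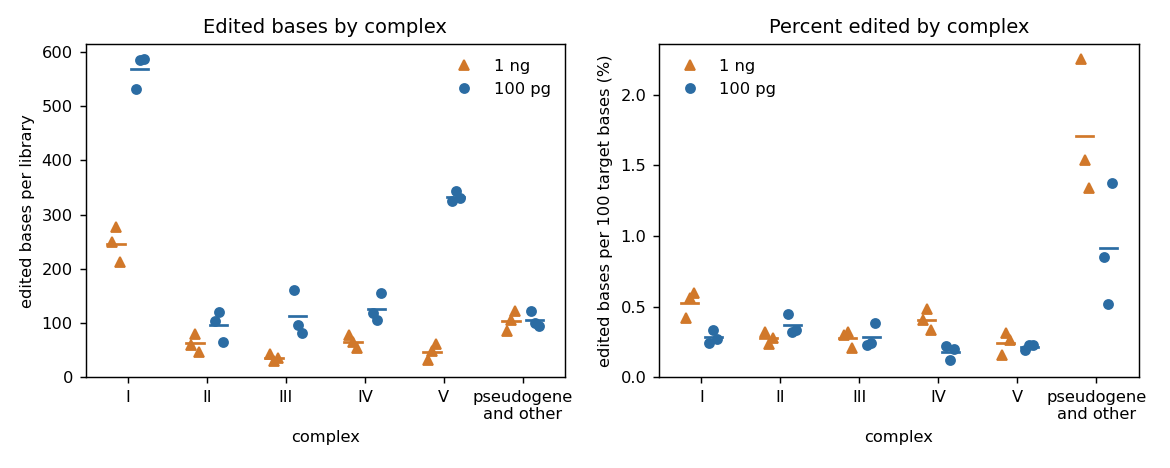
Edited bases per library (left) and edited bases per 100 target bases (right) by complex, with 1 point per library and a bar at the mean of 3. Complex V held 31 to 61 edited bases at 1 ng and 325 to 343 at 100 pg, while the pseudogene and other labels held 85 to 122 and 95 to 123.

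Complex II, which also works in the tricarboxylic acid cycle, had overlapping inputs in edited bases. Its 8 members held 60, 80 and 47 edited bases at 1 ng and 104, 121 and 65 at 100 pg, at 0.318%, 0.239% and 0.280% and 0.448%, 0.324% and 0.334% edited. Among the 5 complexes, the percent edited was higher in every 100 pg library than in every 1 ng library in this complex alone, and this was not tested. SDHD, a membrane anchor, had 28, 22 and 19 edited bases at 1 ng and 32, 25 and 15 at 100 pg. Relative to target bases it had 0.267%, 0.220% and 0.212% against 0.526%, 0.576% and 0.433%, a log2 difference of -1.14 ± 0.44 (limma, adjusted p = 0.291). SDHC, the other anchor, had 6, 17 and 0 against 28, 48 and 14 edited bases. SDHA, the flavoprotein that oxidises succinate, had 10, 14 and 8 against 4, 18 and 13. None of the 23 SDHA clusters carried the SDHA name alone, since overlapping genes shared the labels, so that its values are uncertain. The assembly factor SDHAF3 had 3, 16 and 8 against 35, 1 and 16.

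Complex III held 43, 30 and 36 edited bases at 1 ng and 161, 96 and 82 at 100 pg over its 8 members. The groups did not overlap in edited bases but overlapped in percent edited, at 0.301%, 0.321% and 0.205% and 0.225%, 0.240% and 0.387%. UQCRC2, a core protein of the matrix side, had 5, 6 and 8 against 70, 12 and 15 edited bases (log2 -2.11 ± 0.89, adjusted p = 0.434). The 70 of 100 pg replicate 1 came from 15 positions. UQCRC1, its partner, had 4, 0 and 6 against 4, 36 and 21. UQCRFS1, the Rieske iron-sulfur protein, had 7, 9 and 4 against 12, 13 and 18, without overlap.

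In complex IV the subunits held more edited bases at 100 pg and the assembly factors did not. The 10 subunits held 10, 21 and 8 edited bases at 1 ng and 67, 67 and 124 at 100 pg, whereas the 10 assembly factors held 68, 45 and 46 and 51, 38 and 32. This difference was not tested. The percent edited of the complex was lower at 100 pg, at 0.404%, 0.485% and 0.336% against 0.220%, 0.122% and 0.201%. In the subunits it was 0.369%, 1.59% and 2.75% against 0.159%, 0.0885% and 0.168%. Their target bases numbered 2711, 1318 and 291 at 1 ng and 42210, 75665 and 73595 at 100 pg. In the assembly factors the percent edited overlapped, at 0.410%, 0.366% and 0.292% and 0.442%, 0.363% and 0.835%. COX5A, a matrix-side subunit, had 0, 1 and 2 against 35, 11 and 42 edited bases. Its cover per cytidine reached 355 to 1311 reads at 100 pg and was 22.1 and 7.17 reads where a cluster was called at 1 ng. COX7B, a small membrane subunit, had 1, 5 and 1 against 16, 0 and 34. NDUFA4, named for complex I but now counted as a subunit of complex IV, had 2, 0 and 1 against 0, 0 and 32, so that its level rested on 100 pg replicate 3. COX11, which delivers copper to the catalytic subunit, had 45, 20 and 6 against 2, 12 and 16, with overlapping groups, and 23 of its 32 positions lay in the 3′ untranslated region.

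Of the 5 complexes, complex V had the largest ratio between the inputs in edited bases. Its 18 members held 31, 49 and 61 at 1 ng and 325, 343 and 330 at 100 pg, over 540, 1144 and 1137 nt and 1620, 1933 and 1812 nt of clusters. The target bases were 19449, 15502 and 23267 at 1 ng and 166254, 149967 and 144945 at 100 pg. The percent edited overlapped, at 0.159%, 0.316% and 0.262% and 0.195%, 0.229% and 0.228%.

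ATP5F1A, the alpha subunit of the catalytic head, had 7, 5 and 6 edited bases at 1 ng and 36, 88 and 96 at 100 pg. The groups did not overlap. They came from 2, 1 and 2 clusters at 1 ng and 3, 9 and 7 at 100 pg. The log2 difference of 1 ng minus 100 pg was -3.37 ± 0.64 (SE, n = 3 against 3) and passed the test (edgeR quasi-likelihood, adjusted p = 0.0360). The call was lost when the target bases of the gene were entered as an offset (log2 -1.09, adjusted p = 0.169). It was kept without 100 pg replicate 1 (adjusted p = 0.0146) and lost when any other library was left out (adjusted p = 0.120 to 0.229), with a log2 difference of -3.59 to -3.10 in those 5 fits. Relative to target bases, the gene had 0.175%, 0.145% and 0.126% against 0.186%, 0.399% and 0.364% (log2 -0.92 ± 0.43, limma, adjusted p = 0.351). The cover per cytidine of its clusters was 167, 430 and 244 against 434, 193 and 263 reads, with overlap. Of the 30 edited positions, 28 were coding: 16 synonymous, 10 missense and 2 stop positions. A pair of coding positions was listed in more than 1 library. The missense one (S220L) was edited in 3 of 166 reads of 1 ng replicate 1 and 12 of 249 reads of 100 pg replicate 3. The synonymous one (F342F) was edited in 4 of 214 reads of 1 ng replicate 1 and 10 of 265 reads of 100 pg replicate 2.

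The neighbouring subunits gave the following values. ATP5F1B had 5, 0 and 2 edited bases at 1 ng against 76, 42 and 28 at 100 pg (log2 -4.02 ± 0.97, edgeR adjusted p = 0.0878). ATP5PB, the peripheral stalk subunit b, had 4, 0 and 1 against 50, 48 and 47 (log2 -4.49 ± 0.97, edgeR adjusted p = 0.0541). Both had groups without overlap and did not pass the test, and the share of all genes without such overlap was not counted. ATP5F1C had 0, 3 and 12 against 25, 32 and 65 (log2 -2.86 ± 0.98, edgeR adjusted p = 0.274). ATP5MG, a membrane subunit, had 6, 6 and 15 against 13, 36 and 6, with overlap. The inhibitor ATP5IF1, which blocks ATP hydrolysis by the complex, was counted at 1, 6 and 4 against 16, 21 and 0.

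**Figure D5:**
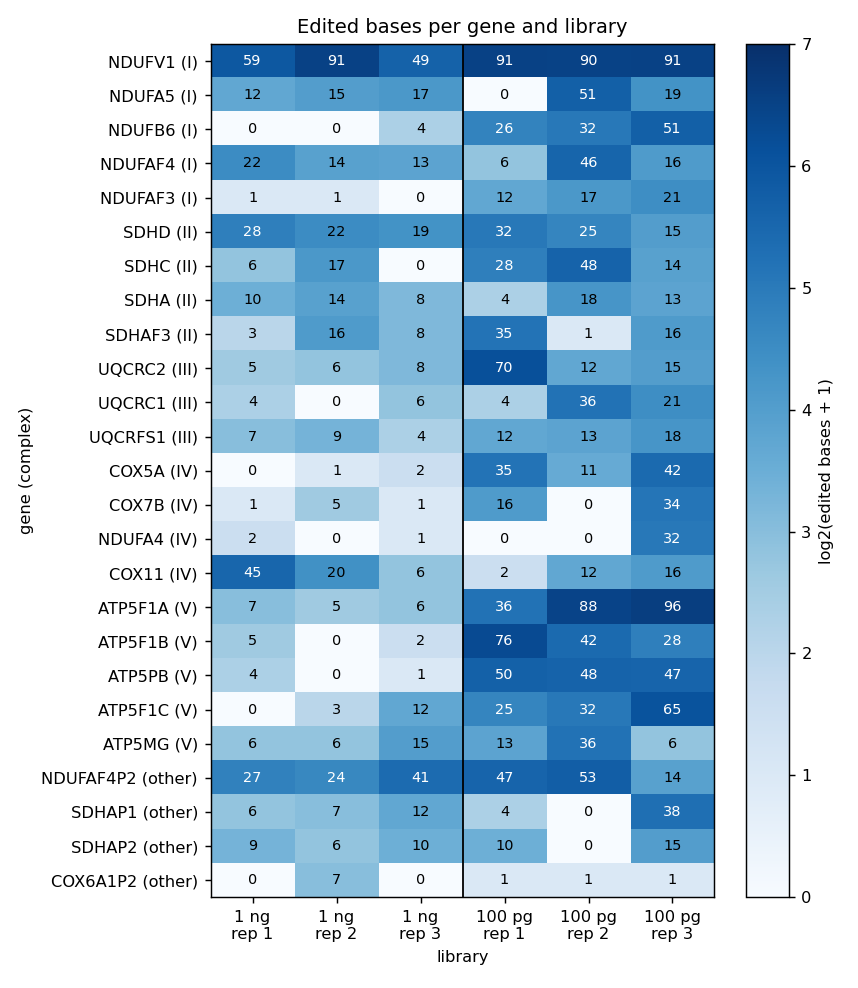
Edited bases per gene (number in each cell) in the 6 libraries, coloured by log2(edited bases + 1), for the 25 genes named by the rule, ordered by complex. ATP5F1A, ATP5F1B, ATP5PB and ATP5F1C held 0 to 12 edited bases at 1 ng and 25 to 96 at 100 pg. Most of the genes were named by these same edited bases summed over both inputs, so the contrast only describes them.

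Tested across all genes, few differed between the inputs. In edited bases, 2577 genes passed the filter on low counts, of which 0 were called higher and 8 (0.31%) lower at 1 ng (edgeR). Before adjustment, 252 had a p under 0.05. Of the 131 members, 32 passed the filter, 0 were called higher and 1, ATP5F1A, lower, and 12 had an unadjusted p under 0.05. The median log2 difference was -0.86 in those 32 and 0.02 in all genes tested. Since a member could pass the filter through the group in which it was high, the median is a description of those 32 only. The Wald test of DESeq2 called 0 members higher and 10 lower, beside 18 and 92 genes in all. With the target bases as an offset, 18 members were tested and their median was -0.65, as was that of all genes (-0.65).

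In the edit fraction, the log odds of an edited base, 3622 genes with at least 50 target bases in all 6 libraries were tested by limma, and 1 (0.0276%) was called higher at 1 ng and 0 lower, with 511 at an unadjusted p under 0.05. Of the 27 members tested, 0 were called and 6 had an unadjusted p under 0.05. Their median log2 difference was -0.49, against -0.40 in all genes. In the read depth at clusters, 3914 genes were tested by limma and 0 were called higher and 2 (0.0511%) lower at 1 ng, with 319 at an unadjusted p under 0.05. Of the 31 members tested, 0 were called and 3 had an unadjusted p under 0.05, and their median was 0.02 against -0.08. The deposited depth counts reads spliced across a cluster. In 164 of the 421 intron clusters of the members it was over 10 times the cover per cytidine, against 17.0% of intron clusters in all genes.

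Member clusters were also counted in the deposited lists of clusters that overlap in all 3 replicates of an input. At 1 ng 10 of 762 shared clusters (1.31%) carried a member's name and at 100 pg 4 of 242 (1.65%). Of all clusters of a library the members had 0.737%, 0.761% and 0.716% at 1 ng and 1.15%, 1.18% and 1.05% at 100 pg. Member clusters overlapped one in both other replicates in 5.68%, 3.29% and 3.67% at 1 ng, against 3.16%, 2.38% and 2.48% of all clusters. At 100 pg these percents were 2.25%, 2.15% and 2.86% against 1.54%, 1.51% and 1.40%. The member percents were higher in each library, on 4 to 10 clusters. NDUFV1 (chr11:67609457-67609501) and NDUFAF4 (from chr6:96891086) were in the lists of both inputs. At 1 ng the others were SDHD (chr11:112094971-112095120), ATP5MG (chr11:118409451-118409495), COX11 (chr17:54962208-54962252), NDUFA5 (chr7:123542008-123542067), SDHAP1, SDHAP2 and a pair of clusters labelled NDUFAF4P2. At 100 pg they were NDUFB6 (chr9:32570961-32571035) and the pseudogene COX6A1P2 (chr6:37045101-37045130). After the authors' removal of background clusters 9 of 637 and 3 of 199 were left. SDHAP2 at 1 ng and NDUFV1 at 100 pg were those no longer listed.

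The pseudogene and other labels did not follow the subunits. The 32 loci held 85, 106 and 122 edited bases at 1 ng and 123, 100 and 95 at 100 pg, with overlapping groups. NDUFAF4P2 had the most, at 27, 24 and 41 against 47, 53 and 14, and all 72 of its clusters shared a label with other genes, among them GNGT1. Its edited reads thus cannot be assigned to it. SDHAP1, a copy of SDHA, had 6, 7 and 12 against 4, 0 and 38, and SDHAP2 9, 6 and 10 against 10, 0 and 15. Reads of such copies and of their parent genes can be exchanged by an aligner. COX6A1P2 had 0, 7 and 0 against 1, 1 and 1. In all, 449 of the 1176 member clusters carried more than 1 gene name and 28 members had no cluster of their own.

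Other genes of the pathway were followed by the same counts. Of the 13 mitochondrially encoded subunits, 3 to 6 had clusters in a library, with 1423 to 2048 edited bases per library. MT-CO1, MT-CYB and MT-ND5 were seen in all 6 libraries. Of 18 genes of electron carriers and ubiquinone synthesis, 2 were tested in edited bases, of 32 further assembly factors 7, and of 18 genes of the tricarboxylic acid cycle 6. In edited bases 0 genes of these lists were called in either direction, and the list medians were -2.01, 1.05 and -0.56. The mitochondrially encoded genes (2 tested, 0 called) had a median of 0.05.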

How the data were processed

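RNA of HEK293XT cells given the APOBEC1-nanobody enzyme was sequenced from 1 ng or 100 pg (3 libraries each). Per the submitters' processing notes, reads were trimmed with cutadapt and aligned with STAR 2.4.0 to hg38. Sites were called by the authors with SAILOR, which removed known variants, and clusters with FLARE. The deposited site lists give counts of edited and covering reads, the edited fraction and a confidence score. The deposited cluster lists give edited and target base counts, the read depth as a signal, a score, and other values such as labels. The authors' intersected lists hold clusters overlapping in 3 replicates. The low-input kit keeps no strand.

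Sites with score above 0.5 and fraction below 0.8 were kept, as in the study's methods. Clusters were assigned to every gene named in their label and summed per gene and library. Every one of the 1329 member positions was a C in the reference. Regions came from canonical GENCODE transcripts (130 of 131 members matched). Edited bases were tested with edgeR 4.0.16 (quasi-likelihood, TMM, filterByExpr), edit fractions (log2 odds, pseudocount 0.5) and log2 mean depths, centred on each library's median, with limma 3.58.1, in R 4.3.3. Benjamini-Hochberg adjusted p under 0.05 was called. DESeq2 1.42.0 served as an alternative. Scripts were tested on simulated data. Sequenced depth is not given in the files. The adjusted p-values in the authors' intersected lists were not used.

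Named were the 3 subunits of complexes I to IV and 4 of complex V with most edited bases, the 4 such assembly factors, members called in a test, and members in the intersected lists; ATP5IF1 and positions shared by libraries were added after values were seen. Members and lists were chosen with earlier results of these data known.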

Additional observations from a re-analysis of the deposited data

How the results depend on the processing

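For edited bases, 8 genes and 1 member (ATP5F1A) were called lower at 1 ng and 0 higher. With DESeq2 size factors 2 members (ATP5F1A, ATP5PB) were called lower, and with the DESeq2 Wald test 18 genes were higher and 92 lower, 10 of them members. Without the filter on low counts 41 genes and 5 members (ATP5F1A, ATP5F1B, ATP5PB, NDUFAB1, NDUFB6) were lower. With an offset of target bases 6 genes were higher and 14 lower, with 0 members, and the median of all genes moved to -0.65. Settings chosen after seeing the data were clusters naming 1 gene and exon clusters, each with 0 genes and 0 members lower (ATP5F1A log2 -3.19 and -2.99, adjusted p = 0.0676 and 0.0878, with 1664 and 1552 genes tested). Over these and the other alternatives, its adjusted p ranged from 5.69e-06 to 0.229. Leaving out 1 library gave 0 to 6 genes and 0 or 1 members lower and 0 or 1 genes higher in edited bases, 0 or 1 genes higher in edit fraction, and 0 to 4 genes and 0 or 1 members lower in depth (NDUFC1, without 100 pg replicate 2).
No pairing by replicate number was seen: deviations of same-numbered libraries correlated at -0.03, 0.01 and -0.01. Counts this sparse cannot show whether same-numbered libraries came from the same RNA extract. With the replicate number as a block, 1 gene was higher and 27 lower in edited bases, 4 of them members (ATP5F1A, ATP5F1B, ATP5PB, NDUFB6), and 4 genes lower in depth.
For the edit fraction, 0 members were called under any alternative run. For depth, 2 genes were lower, against 6 with the median over clusters, 0 with at least 3 clusters and 8 with target bases per cytidine (chosen after seeing the data). Cover limits these values: 43.6% to 51.5% of member positions per library at 1 ng rest on 1 edited read, against 56.6% to 60.3% of positions in all other clusters. In members the deposited depth also counts spliced reads. The cause of each change was not tested.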
